A study of Mus musculus with 24 samples.

Results

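The cyclins D and the inhibitors of cyclin-dependent kinases (CDKs) were followed through mouse neural stem cells, stem cell-derived astrocytes and primary astrocytes by RNA-seq. The 10 genes, of 49671 counted, were a list of symbols with no threshold on their values, chosen with earlier results of these data known. They were the D cyclins Ccnd1, Ccnd2 and Ccnd3, the kinase gene Cdk6, the CIP/KIP inhibitors Cdkn1a, Cdkn1b and Cdkn1c, and the INK4 inhibitors Cdkn2a, Cdkn2b and Cdkn2c. All 10 passed the filter on low counts, some of them through only a few of the groups.

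The 24 libraries came from 6 groups of 4, and no gene was deleted or introduced in any of them. Neural stem cells (NSC) were grown with 20 ng/ml EGF and 20 ng/ml FGF at passages 50 to 60, and AGES, astrocytes derived from an embryonic stem cell line, were made from NSC with 20 ng/ml BMP4 over 3 to 5 days. Both came from 1 embryonic stem cell line of C57BL/6N mice, GSC-5003, so their replicates were cultures of different passages of 1 line. The methods list the BMP4 medium without EGF and FGF, and on another coating. In AGES against NSC, BMP4, the loss of these factors and the coating therefore cannot be told apart. Primary astrocytes were taken from C57BL/6J mice of 4 to 8 days (neoAC) or 100 to 140 days (AdAC) with magnetic beads against the surface antigen ACSA-2, with 2 mice pooled for each replicate, and were either frozen at once (direct) or kept for 7 to 10 days in culture (CellC). Neonatal and adult brains were dissociated with different kits, so age and kit cannot be told apart. The medium and the substrain of mice also differed between the stem cell-derived and the primary cultures, so neither can be told apart from origin.

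In the textbook account, growth factor signals raise the D cyclins, which bind CDK4 or CDK6 and let these kinases phosphorylate the retinoblastoma protein, and this releases E2F factors that drive entry into S phase. INK4 proteins bind CDK4 and CDK6 themselves and keep D cyclins off. CIP/KIP proteins bind whole cyclin-CDK complexes, block those of CDK2 and can help assemble those of cyclin D. In neural progenitors Ccnd1 and Ccnd2 are the main D cyclins, and in many tissues Cdkn2a and Cdkn2b rise when cells are kept in culture or age.

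Library totals lay between 27904126 and 37997368 counts, and levels are CPM, the counts on a gene relative to the library total after TMM scaling between libraries, as mean ± SD of 4 libraries. A count of 3 corresponds to 0.0786 to 0.117 CPM, which covers counting error only. The 9 astrocyte markers checked were above 1 CPM in every group. Their summed level was lowest in AdAC CellC, at 918 to 1411 CPM, below the 1942 to 2469 CPM of NSC. Most of the NSC sum was Slc1a3 (1499 CPM, against 219 CPM in AdAC CellC), and Slc1a2 and Aldoc were also higher in NSC. The other markers, Gfap, Aqp4, Gja1, Aldh1l1, Atp1b2 and S100b, had higher means in AdAC CellC than in NSC. The summed level was 15990 to 16718 CPM in AdAC direct, 7402 to 8603 CPM in neoAC CellC and 21183 to 24174 CPM in neoAC direct. In AGES it was 55086 to 60009 CPM, most of it Gfap (50482 CPM). Gfap, Aldoc and S100b had their highest means in AGES. Gja1 (10.3 CPM) and Aldh1l1 (14.97 CPM) had their lowest means there, near those of NSC (15.5 and 18.8 CPM). Oligodendrocyte markers summed to 27481 to 31029 CPM in AdAC direct and 4284 to 10913 CPM in AdAC CellC, with all 7 markers above 1 CPM in both, but to at most 402 CPM in any neonatal library. The sum of mural or fibroblast markers was highest in AdAC CellC, at 1114 to 1532 CPM, against 282 to 322 CPM in AdAC direct. All 6 were above 1 CPM in AdAC CellC, and most of the sum was Col1a1 (813 CPM) and Col1a2 (446 CPM). Pdgfrb (69.1 against 140 CPM) and Rgs5 (47.7 against 81.9 CPM) were lower there than in AdAC direct. Dcn and Lum were highest in neoAC CellC. Their part in the results was not tested, and in bulk samples fewer cells of a type cannot be told apart from less RNA per cell.

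Ccnd1 (ENSMUSG00000070348, chr7:144929931-144939925 of GRCm38, minus strand), the D cyclin most tied to mitogen signals, spanned the widest range of the D cyclins. The NSC libraries held 1544, 1537, 1386 and 1366 CPM, and the AdAC CellC libraries held 1793, 1843, 1685 and 1896 CPM. AdAC direct lay at the other end with 12.2, 14.2, 14.2 and 14.8 CPM. Between these lay neoAC direct with 115, 129, 129 and 114 CPM and AGES with 34.3, 21.8, 70.1 and 111 CPM. The neoAC CellC libraries held 876, 321, 271 and 423 CPM, so its first library stood well above the other three. In the order of mean levels, every AdAC CellC library (1804 ± 89.9 CPM) was above every NSC library (1458 ± 95.4 CPM). The fit, in which the 6 groups share 1 estimate of the spread, did not call that difference (edgeR adjusted p = 0.424, 95% interval of the log2 difference -0.37 to 0.99). Each other pair of neighbours was called. Exons of LTO1 on the opposite strand cover 23.4% of the Ccnd1 exons, and LTO1 itself averaged 15.6 to 36.6 CPM in the groups. Whether the counting used the strand is not stated, so the Ccnd1 level in AdAC direct, at 13.9 ± 1.14 CPM below the 21.5 ± 1.04 CPM of LTO1, is uncertain. So is that in AGES, where LTO1 held 34.0 to 39.6 CPM and the lowest Ccnd1 library 21.8 CPM.

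Ccnd2 (ENSMUSG00000000184, chr6:127125162-127152193, minus strand), a D cyclin of neural progenitors, followed another pattern. It was high in all groups except AdAC direct, whose libraries held 69.7, 71.3, 69.1 and 67.0 CPM. The AGES libraries held 669, 582, 1106 and 827 CPM and the NSC libraries 766, 765, 724 and 889 CPM, so these groups overlapped. The neoAC CellC libraries held 636, 379, 329 and 414 CPM, and the same first library that was high in Ccnd1 was the high one here. AdAC CellC, AGES, NSC and neoAC direct followed each other from 911 ± 29.7 to 707 ± 114 CPM, and no neighbours among these 4 groups differed beyond their spread (edgeR adjusted p from 0.301 to 0.963). The antisense genes 9330179D12Rik and Gm43126 cover 3.91% and 3.95% of its exons.

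Ccnd3 (ENSMUSG00000034165, chr17:47505051-47599691, plus strand), the D cyclin best known from lymphocytes and differentiating muscle, varied least among the D cyclins. Its group means ran from 48.2 ± 4.33 CPM in AdAC direct to 128 ± 4.21 CPM in AdAC CellC. The NSC (83.8 ± 6.59 CPM) and AGES (81.3 ± 5.50 CPM) libraries overlapped. The exons of Bysl on the other strand cover 4.11% of its own.

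Cdk6 (ENSMUSG00000040274, chr5:3341485-3531008, plus strand), a kinase partner of the D cyclins, separated the primary from the stem cell-derived cells. The AGES libraries held 0.312, 0.174, 0.160 and 0.263 CPM, which is 27 counts in all, and the NSC libraries held 2.15, 2.25, 2.83 and 1.24 CPM. The lowest primary library, one of AdAC direct, held 8.49 CPM, so every primary library was above every NSC and AGES library. The neoAC CellC libraries held 48.8, 67.5, 57.0 and 73.9 CPM and the AdAC CellC libraries 94.4, 78.2, 75.0 and 72.3 CPM, which overlap. Cdk4, the other kinase of D cyclins and no member here, was at 448 ± 26.5 CPM in NSC and 139 ± 9.06 CPM in AGES.

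**Figure D1:**
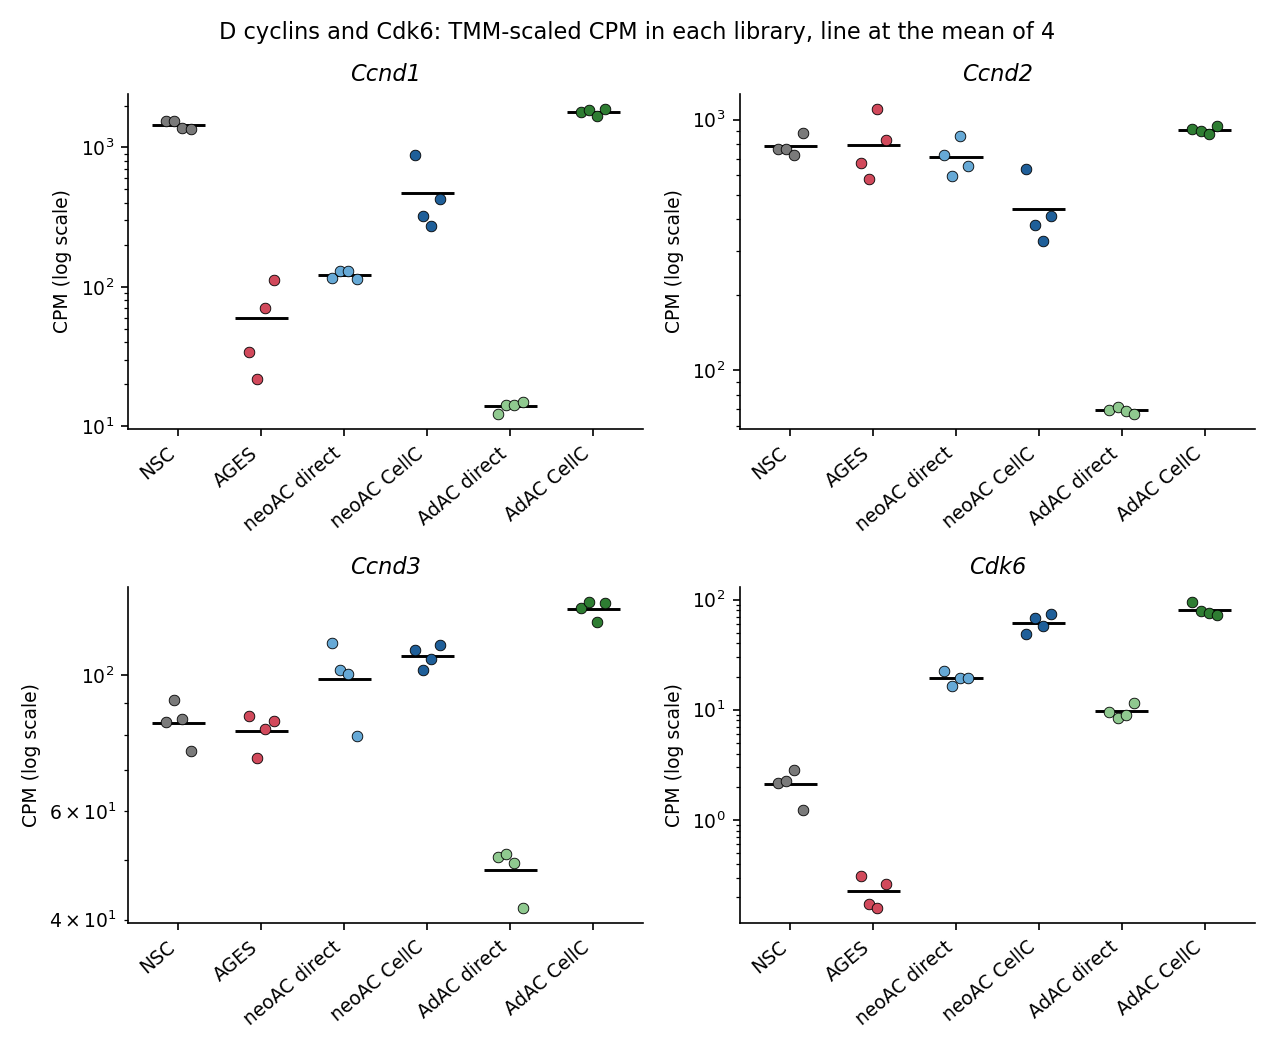
Level of Ccnd1, Ccnd2, Ccnd3 and Cdk6 (y axes, CPM on log scales that differ between panels) in each of 4 libraries of the 6 groups (x axes), with a line at the group mean. Ccnd1 is at 21.8 to 111 CPM in AGES and Ccnd2 is at 582 to 1106 CPM, and Cdk6 is under 3 CPM in all NSC and AGES libraries.

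Cdkn1a (ENSMUSG00000023067, chr17:29090976-29100727, plus strand) encodes p21, an inhibitor of CDK2 complexes and a target of p53. The AdAC CellC libraries held 741, 723, 726 and 619 CPM. Those of neoAC CellC held 193, 172, 165 and 168 CPM. The NSC libraries held 118, 137, 102 and 78.3 CPM. The other 3 groups lay together, with 11.8, 19.3, 26.4 and 26.9 CPM in AGES, 23.0, 16.6, 18.1 and 20.1 CPM in AdAC direct and 19.2, 24.4, 14.9 and 14.3 CPM in neoAC direct. Neighbours among these 3 did not differ beyond their spread (edgeR adjusted p = 0.593 and 0.698), and the remaining neighbours in the order did.

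Cdkn1b (ENSMUSG00000003031, chr6:134920401-134925513, plus strand) encodes p27, which holds resting cells in G1 and is removed by ubiquitin ligases when they divide. It was lowest where Cdkn1a was highest, and its range was narrow. The AGES libraries were highest with 175, 174, 177 and 170 CPM, and the AdAC CellC libraries were lowest with 57.7, 59.1, 63.4 and 63.6 CPM. Between them came neoAC direct (146 ± 7.35 CPM), NSC (104 ± 16.3 CPM), AdAC direct (90.9 ± 4.08 CPM) and neoAC CellC (87.6 ± 4.43 CPM), of which the last pair did not differ beyond their spread (edgeR adjusted p = 0.568).

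Cdkn1c (ENSMUSG00000037664, chr7:143458339-143461050, minus strand) encodes p57 and is an imprinted gene. The stem cell-derived groups had next to no counts on it, with 4 counts over the NSC libraries and 2 over the AGES libraries, at or under 3 counts in each. The primary groups averaged 15.8 ± 4.63 CPM in neoAC CellC, 13.2 ± 1.66 CPM in neoAC direct, 9.96 ± 1.88 CPM in AdAC CellC and 7.00 ± 0.595 CPM in AdAC direct, and their lowest library held 6.24 CPM. Exons of the antisense gene Gm44732 cover 30.7% of its exons, but no group averaged more than 0.155 CPM on that gene.

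The 3 INK4 genes lie on chromosome 4, with Cdkn2a (ENSMUSG00000044303, chr4:89274471-89294653) and Cdkn2b (ENSMUSG00000073802, chr4:89306299-89311039) next to each other on the minus strand and Cdkn2c (ENSMUSG00000028551, chr4:109660876-109667189, minus strand) far from both. Cdkn2a has a pair of first exons. One starts the transcript of p16 (Ink4a), an INK4 inhibitor, and the other that of p19 (Arf), which binds MDM2 and is no CDK inhibitor. The counts are per gene, so these transcripts cannot be told apart here. The windows from 250 to 51 bases before the RefSeq starts (GRCm38.p6, minus strand, 5′ to 3′) are shown to place the 3 starts that the counts of Cdkn2a and Cdkn2b take in, none of which was measured on its own, with CpG dinucleotides in capitals:
Cdkn2a, Arf start: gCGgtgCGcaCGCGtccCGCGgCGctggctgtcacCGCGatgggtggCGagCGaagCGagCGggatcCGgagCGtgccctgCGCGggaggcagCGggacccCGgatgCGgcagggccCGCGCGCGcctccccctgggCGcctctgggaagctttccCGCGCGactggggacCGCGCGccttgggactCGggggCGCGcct
Cdkn2a, Ink4a start: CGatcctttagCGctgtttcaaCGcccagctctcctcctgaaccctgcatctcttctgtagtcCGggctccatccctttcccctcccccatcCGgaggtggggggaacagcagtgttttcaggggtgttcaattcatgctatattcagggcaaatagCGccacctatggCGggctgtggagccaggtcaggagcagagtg
Cdkn2b start: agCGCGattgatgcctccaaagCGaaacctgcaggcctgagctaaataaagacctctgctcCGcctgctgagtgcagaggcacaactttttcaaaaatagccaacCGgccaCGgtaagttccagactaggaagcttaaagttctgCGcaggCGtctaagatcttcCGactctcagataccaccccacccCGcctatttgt

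The first lies at chr4:89294670-89294869, the second at chr4:89282243-89282442 and the third at chr4:89311083-89311282. The starts of the Cdkn2a transcripts are 12.4 kb apart, and that of Cdkn2b lies 16.4 kb upstream of that of Arf. The window of Arf holds 34 CpG at a GC content of 79%, and 0.813% of the 32851 RefSeq windows of these 200 bases hold as many. The window of Ink4a holds 7 CpG (38.3% of windows hold as many) and that of Cdkn2b holds 10 (29.3%), against a median of 4. The CpG counts describe the sequence, and no methylation was measured.

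Cdkn2a was highest in the stem cell-derived cells. The AGES libraries held 90.5, 96.2, 106 and 94.9 CPM and the NSC libraries 57.8, 72.4, 47.2 and 51.5 CPM, which do not overlap. Among primary cells it was high only in AdAC CellC, with 18.1, 17.3, 20.5 and 18.1 CPM, against 1.75, 1.10, 1.27 and 1.72 CPM in neoAC CellC. The directly isolated cells were near the floor, with 30 counts over the neoAC direct libraries (0.230 ± 0.106 CPM) and 13 counts over the AdAC direct libraries (0.0996 ± 0.0332 CPM).

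Cdkn2b encodes p15, an INK4 inhibitor known to respond to TGF-β. The AGES libraries held 178, 192, 225 and 188 CPM, above all other libraries. The AdAC CellC libraries came next with 38.6, 35.1, 38.5 and 36.5 CPM. The NSC libraries held 14.1, 19.7, 4.26 and 13.9 CPM and the neoAC CellC libraries 10.7, 8.22, 7.34 and 8.70 CPM, and these groups overlapped (edgeR adjusted p = 0.0521, 95% interval of the log2 difference 0.05 to 1.10). Both directly isolated groups were low, at 1.61 ± 0.699 CPM in neoAC direct and 1.76 ± 0.0919 CPM in AdAC direct.

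Cdkn2c encodes p18, an INK4 inhibitor that is transcribed in many cell types. The AdAC direct libraries held 6.28, 6.24, 7.31 and 5.61 CPM, and every other library held at least 38.1 CPM. Means in the other groups ran from 48.1 ± 6.12 CPM in AdAC CellC to 95.7 ± 7.98 CPM in NSC.

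**Figure D2:**
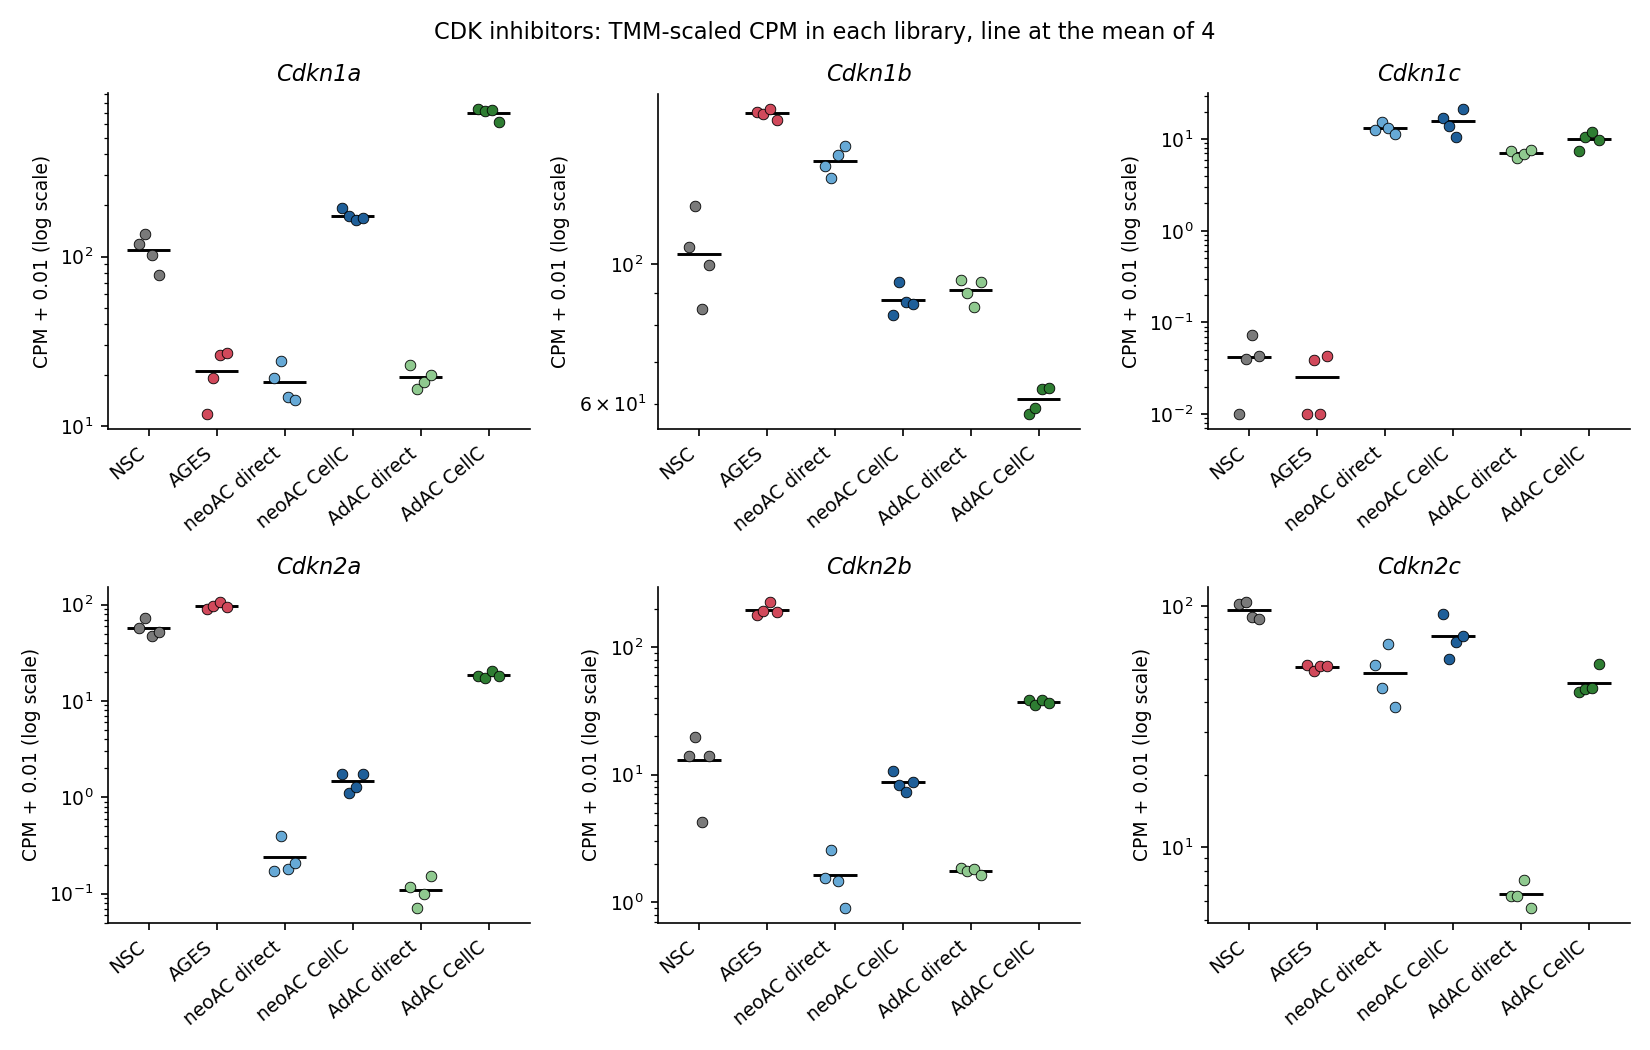
Level of the 6 inhibitor genes (y axes, CPM + 0.01 on log scales that differ between panels) in each of 4 libraries of the 6 groups (x axes), with a line at the group mean. Libraries with no count appear at 0.01. Cdkn2a and Cdkn2b are highest in AGES and low in directly isolated cells, and Cdkn1a is highest in AdAC CellC.

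Levels of different genes were compared as CPM per kb of annotated exons, within each family. The length takes in all annotated exons of a gene, and the counts do not tell which transcripts were expressed. Ccnd1 made up 76.8% ± 2.09 (SD, n = 4) of the summed D cyclin level per kb in NSC, 77.5% ± 0.456 in AdAC CellC and 60.7% ± 6.64 in neoAC CellC. It made up 11.1% ± 5.86 in AGES, 23.2% ± 2.66 in neoAC direct and 18.7% ± 1.84 in AdAC direct, where Ccnd2 led with 79.7% ± 4.85, 66.7% ± 3.52 and 46.6% ± 0.693. Ccnd3 reached 34.7% ± 2.10 in AdAC direct and at most 10.1% ± 1.44 elsewhere. The leading D cyclin per kb was therefore Ccnd1 in NSC and both cultured primary groups, and Ccnd2 in AGES and both directly isolated groups. In neoAC CellC that lead rested on the length scaling, as the log2 ratio of Ccnd1 to Ccnd2 counts was -0.01 ± 0.34. The summed D cyclin level per kb ranged from 15.8 ± 0.583 CPM in AdAC direct to 495 ± 22.3 CPM in AdAC CellC.

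Among CIP/KIP genes, Cdkn1a made up 91.5% ± 1.04 of the summed level per kb in AdAC CellC, 64.5% ± 2.37 in neoAC CellC and 56.9% ± 4.66 in NSC. Cdkn1b led in AGES (86.7% ± 4.08), neoAC direct (73.5% ± 4.32) and AdAC direct (69.2% ± 1.95). Per kb, the same 3 groups were thus led by Ccnd2 and by Cdkn1b, and the other 3 by Ccnd1 and by Cdkn1a. In NSC the lead of Cdkn1a rested largely on the length scaling, as it was at 109 against 104 CPM for Cdkn1b without it. In NSC replicate 4 Cdkn1b was ahead in CPM (99.9 against 78.3 CPM). Among the 3 INK4 genes, Cdkn2c made up 93.3% ± 3.19 in neoAC direct, 63.5% ± 2.08 in AdAC direct and 78.6% ± 1.58 in neoAC CellC. Cdkn2b led in AGES (57.6% ± 1.16) and AdAC CellC (44.3% ± 2.00), and Cdkn2a in NSC (51.9% ± 1.59). Without the length scaling, Cdkn2c was ahead of Cdkn2b in AdAC CellC (48.1 against 37.2 CPM) and of Cdkn2a in NSC (95.7 against 57.2 CPM). The summed INK4 level per kb was highest in AGES at a mean of 244 CPM (227 to 273 CPM) and lowest in AdAC direct at 3.72 ± 0.296 CPM. A further INK4 gene, Cdkn2d, is no member and stays outside these sums and shares. Its level per kb ran from 13.0 CPM in AGES to 26.1 CPM in NSC. In AdAC direct it was 13.2 CPM, above the 3.72 CPM of the 3 members together, and in neoAC direct it was 18.0 CPM beside 19.5 CPM for Cdkn2c, so the shares above hold among the 3 members alone.

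**Figure D3:**
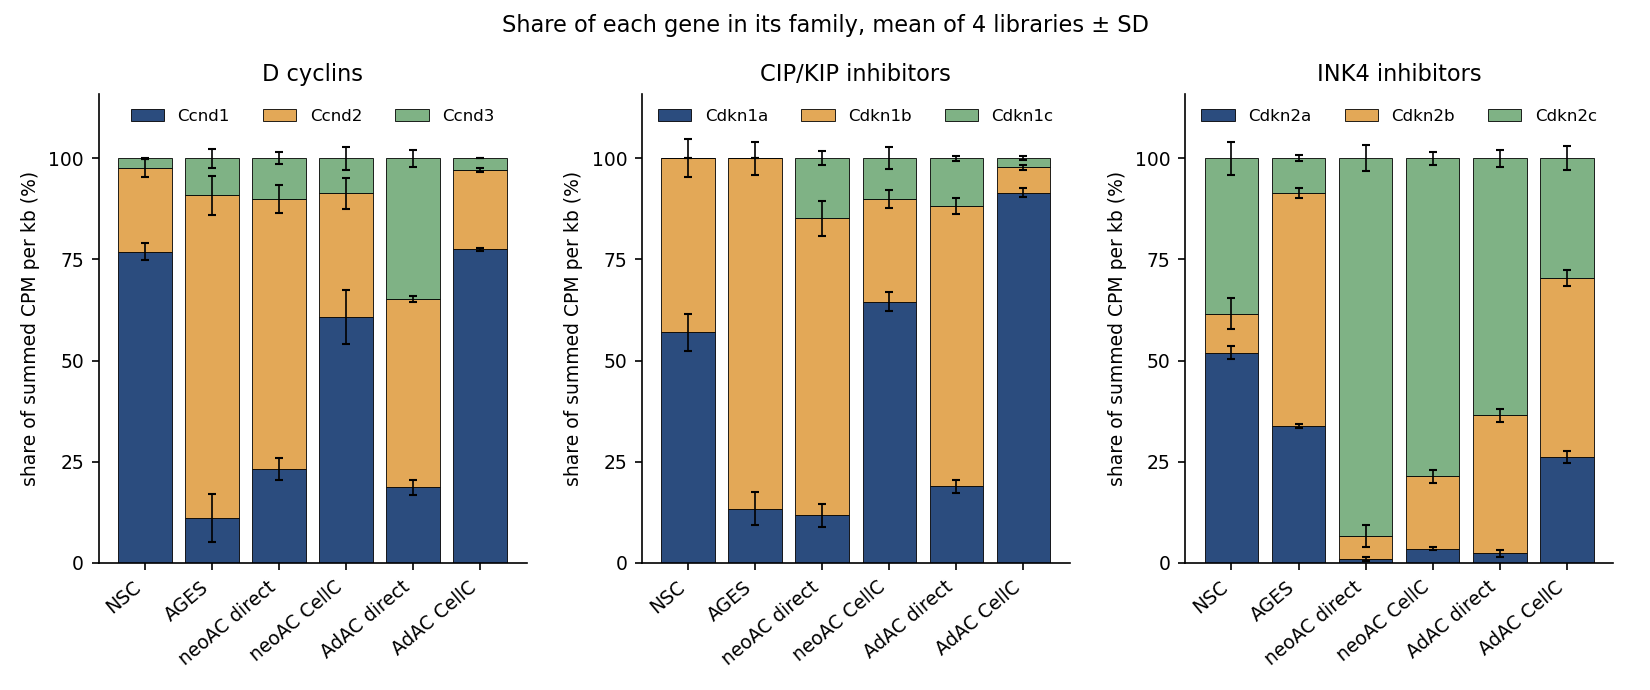
Share of each gene (y axes, % of the summed CPM per kb of its family) in the 6 groups (x axes), for the D cyclins, the CIP/KIP inhibitors and the INK4 inhibitors. Bars are means of 4 libraries and error bars are SD. Ccnd1 makes up 76.8% of the D cyclin level in NSC and 11.1% in AGES.

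Culture of adult astrocytes was compared with direct isolation first. In AdAC CellC against AdAC direct, the 3 D cyclins, Cdk6, Cdkn1a and all 3 INK4 genes rose, with Cdkn1c, and Cdkn1b fell. All 10 members were called, 9 higher and 1 lower, where edgeR called 78.0% of the 19691 genes tested, 38.8% higher and 39.2% lower. The median log2 fold change of the members was 3.38 against 0.00 for all genes. Ccnd1 rose by 7.02 ± 0.45 (log2 fold change ± SE, edgeR adjusted p = 4.83e-12), Cdkn1a by 5.17 ± 0.23 (adjusted p = 1.66e-15) and Cdkn2b by 4.40 ± 0.32 (adjusted p = 1.51e-11). The fitted change of Cdkn2a was 7.47 ± 0.23 (adjusted p = 3.43e-19). With 13 counts in AdAC direct, the ratio of pooled counts was 185 with an exact 95% interval from counting of 108 to 348. Ccnd2 rose by 3.72, Cdk6 by 3.05, Cdkn2c by 2.92 and Ccnd3 by 1.41, all without overlap between groups. The share of all genes without such overlap was not counted. Cdkn1b fell by 0.58 ± 0.08 (adjusted p = 5.36e-07). Cdkn1c differed by 0.51 ± 0.18 with overlapping libraries (adjusted p = 0.0140), and the call was lost without AdAC CellC replicate 3 (0.42, adjusted p = 0.0560) and with no filter on low counts (0.41, adjusted p = 0.0521). The sums of oligodendrocyte and of mural or fibroblast markers differed between these groups as given above, and their part in these changes was not tested.

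Culture of neonatal astrocytes was compared with direct isolation in the same way. In neoAC CellC against neoAC direct, 8 of 10 members were called, 6 higher and 2 lower, where 65.7% of all genes were called, 34.4% higher and 31.3% lower. The largest rise was that of Cdkn1a, by 3.26 ± 0.21 (edgeR adjusted p = 4.16e-12). Cdkn2a rose by 2.60 ± 0.26, Cdkn2b by 2.41 ± 0.32, Ccnd1 by 1.96 ± 0.36, Cdk6 by 1.67 ± 0.15 and Cdkn2c by 0.51 ± 0.14 on the log2 scale. Ccnd2 (-0.69 ± 0.17, adjusted p = 0.00106) and Cdkn1b (-0.74 ± 0.08, adjusted p = 1.48e-08) fell. Libraries of these groups overlapped for Ccnd2 and Cdkn2c, though both were called. Ccnd3 (0.12 ± 0.09, adjusted p = 0.218) and Cdkn1c (0.26 ± 0.18, adjusted p = 0.209) did not pass. Scaling by library size alone, which moved the median of all genes from 0.04 to 0.27, brought Ccnd3 (0.35, adjusted p = 0.000426) and Cdkn1c (0.49, adjusted p = 0.0177) past the threshold. Ccnd3 was also called when at least 10 counts were required in every library (0.20, adjusted p = 0.0422), and Cdkn1c without neoAC CellC replicate 3 (0.42, adjusted p = 0.0395). The 3 ependymal or choroid plexus markers, all above 1 CPM in both groups, summed to 1629 to 2548 CPM in neoAC CellC against 657 to 1326 CPM in neoAC direct. Of these, Foxj1 (1241 against 115 CPM) and Tmem212 (24.9 against 7.02 CPM) were higher in culture, and Ttr was lower (699 against 960 CPM). The 5 endothelial markers summed to 3.88 to 6.63 CPM in neoAC CellC against 64.4 to 261 CPM in neoAC direct. The astrocyte sum was lower in culture, as given above, and the part of these cells in the changes was not tested.

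The effect of culture was then compared between ages by their interaction. It differed for 8 of 10 members, all 8 with a larger log2 change in adult cells, where 68.6% of all genes were called, 35.4% in that direction and 33.2% in the other. The difference, adult minus neonatal, was 5.07 ± 0.53 for Ccnd1, 4.88 ± 0.48 for Cdkn2a, 4.40 ± 0.25 for Ccnd2, 2.41 ± 0.20 for Cdkn2c, 1.99 ± 0.46 for Cdkn2b, 1.92 ± 0.28 for Cdkn1a, 1.38 ± 0.21 for Cdk6 and 1.29 ± 0.12 for Ccnd3 on the log2 scale. The highest of their adjusted p-values was 0.000561, for Cdkn2b. Ccnd2 moved in opposite directions, up in adult cells without overlap and down in neonatal cells with overlapping libraries. Cdkn1b fell at both ages (difference 0.16 ± 0.11, adjusted p = 0.215).

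**Figure D4:**
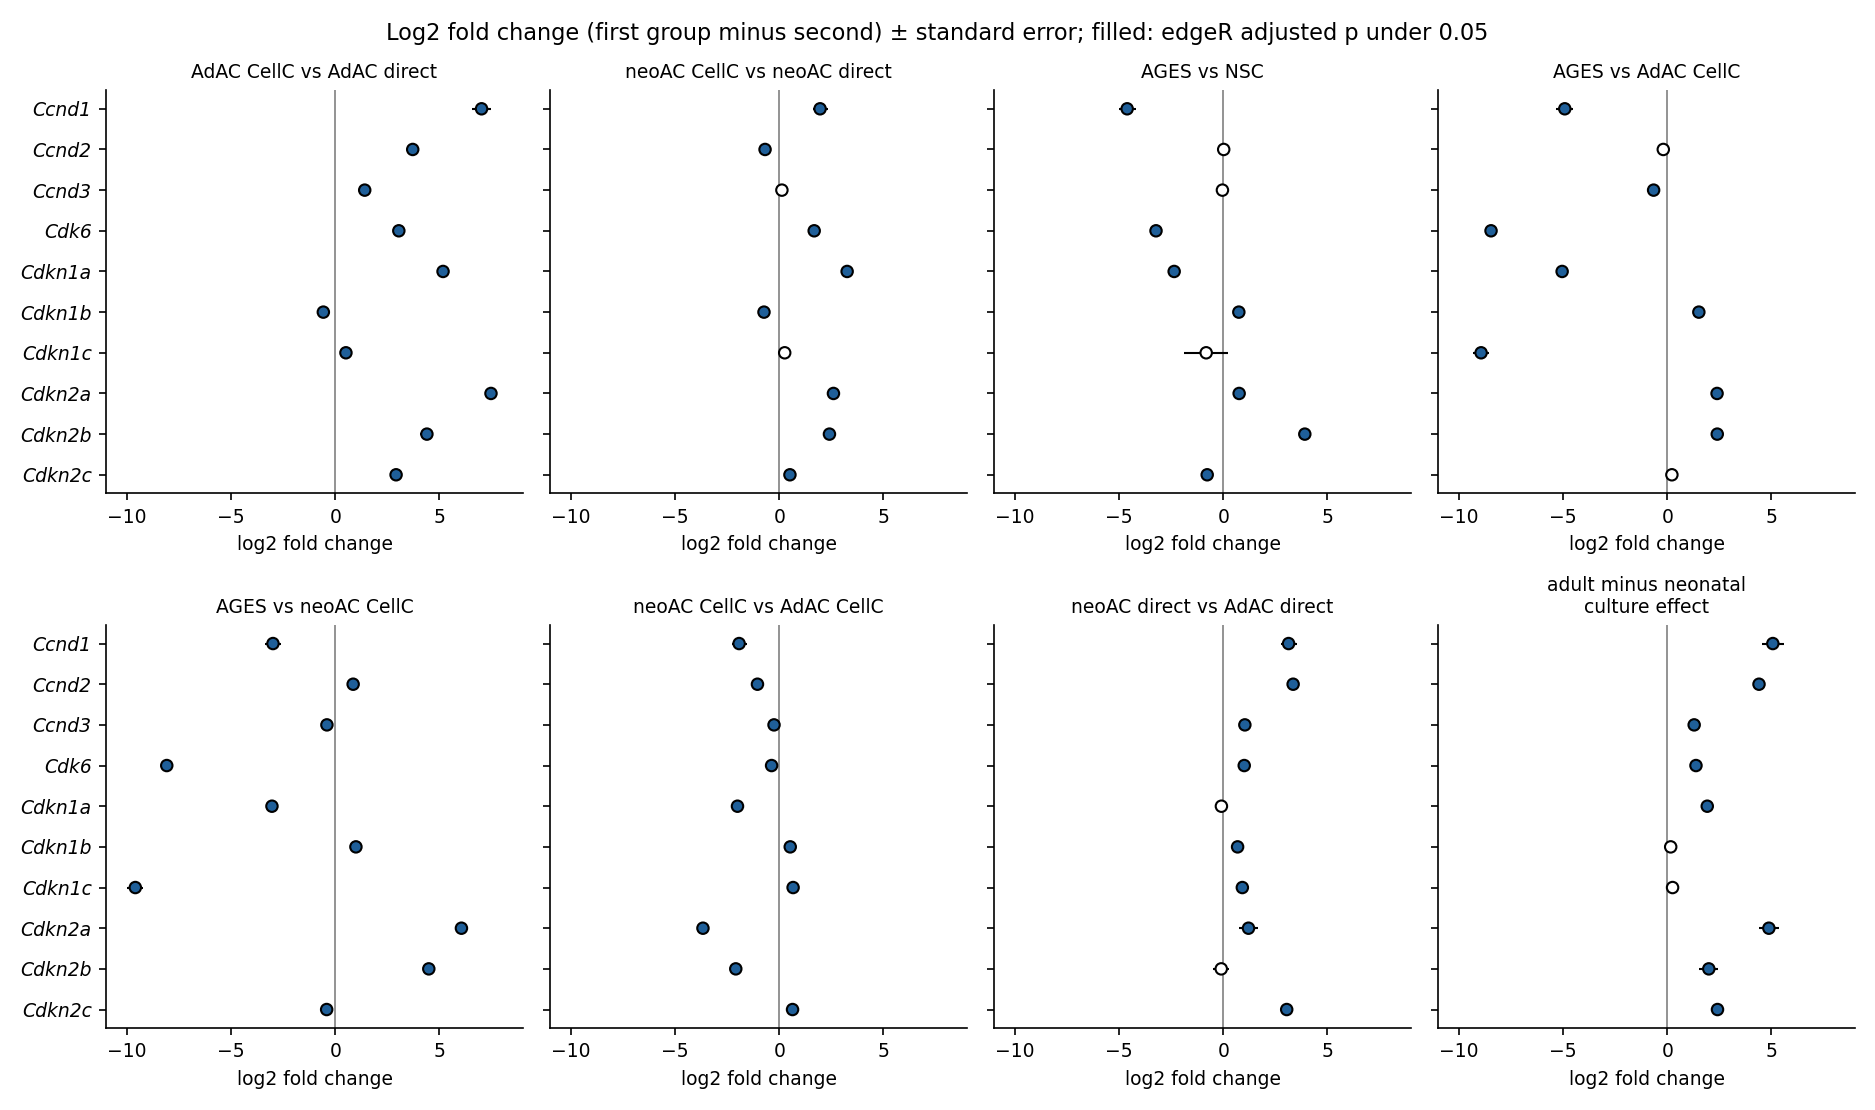
Log2 fold change of each member (x axes, first group minus second) with its standard error, in the 7 comparisons and the interaction, one panel each, with genes on the y axes. Filled points have an edgeR adjusted p under 0.05. For Cdkn1c against NSC or AGES, and Cdkn2a against AdAC direct, points are fitted values on few counts. In the interaction panel 8 of 10 points lie to the right and are filled.

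The direct isolates of the 2 ages were compared next. In neoAC direct against AdAC direct, 8 of 10 members were higher in the neonatal cells and none was lower, where 71.4% of all genes were called, 35.0% higher and 36.4% lower. Ccnd2 was higher by 3.35 ± 0.19, Ccnd1 by 3.13 ± 0.39, Cdkn2c by 3.04 ± 0.16, Ccnd3 by 1.03 ± 0.09, Cdk6 by 1.00 ± 0.15, Cdkn1c by 0.91 ± 0.18 and Cdkn1b by 0.68 ± 0.08 on the log2 scale, all without overlap (highest edgeR adjusted p = 9.02e-05). How many of all genes did not overlap was not counted. Cdkn2a was higher by 1.21 ± 0.44 (adjusted p = 0.0180) on 30 against 13 counts, a pooled ratio of 2.37 with an exact 95% counting interval of 1.20 to 4.94. That call was lost without neoAC direct replicate 2 (0.80, adjusted p = 0.163) and without AdAC direct replicate 2 (1.04, adjusted p = 0.0544). Cdkn1a (-0.09 ± 0.20) and Cdkn2b (-0.10 ± 0.37) did not pass (adjusted p = 0.698 and 0.822). The 95% interval of the log2 difference, adult minus neonatal, was -0.31 to 0.49 for Cdkn1a and -0.63 to 0.83 for Cdkn2b. Oligodendrocyte markers summed to at least 27481 CPM in AdAC direct and at most 402 CPM in neoAC direct, and endothelial markers to 67.1 to 71.2 CPM and 64.4 to 261 CPM. Their part in these differences was not tested.

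Between the cultures of the 2 ages, all 10 members were called. In neoAC CellC against AdAC CellC 3 were higher and 7 lower, where 63.8% of all genes were called, 28.5% higher and 35.2% lower. Cdkn2a was lower (log2 fold change -3.67 ± 0.15, edgeR adjusted p = 5.94e-16), and Cdkn2b (-2.09 ± 0.27), Cdkn1a (-2.01 ± 0.20), Ccnd1 (-1.93 ± 0.36) and Ccnd2 (-1.05 ± 0.17) were lower too. Cdkn1c (0.66 ± 0.18, with overlapping libraries), Cdkn2c (0.63 ± 0.14) and Cdkn1b (0.52 ± 0.08) were higher. Cdk6 (-0.37 ± 0.14, adjusted p = 0.0274) and Ccnd3 (-0.25 ± 0.09, adjusted p = 0.0127) depended on the settings. With DESeq2's size factors the change was -0.27 (adjusted p = 0.117) for Cdk6 and -0.15 (adjusted p = 0.147) for Ccnd3. The Cdk6 call was also lost without neoAC CellC replicate 1 (-0.27, adjusted p = 0.127), without neoAC CellC replicate 3 (-0.32, adjusted p = 0.0918) and without AdAC CellC replicate 1 (-0.28, adjusted p = 0.131), and the Ccnd3 call without neoAC CellC replicate 2 (-0.22, adjusted p = 0.0543). Astrocyte markers summed to 7402 to 8603 CPM in neoAC CellC against 918 to 1411 CPM in AdAC CellC, and oligodendrocyte markers to 271 to 350 against 4284 to 10913 CPM. Mural or fibroblast markers summed to 346 to 525 against 1114 to 1532 CPM, and ependymal or choroid plexus markers to 1629 to 2548 against 411 to 597 CPM. The part of these cells in the differences was not tested.

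In the step from NSC to AGES, BMP4 took the place of EGF and FGF. Ccnd1, Cdk6, Cdkn1a and Cdkn2c fell, and Cdkn2b, Cdkn2a and Cdkn1b rose. In AGES against NSC, 7 of 10 members were called, 3 higher and 4 lower, where 65.7% of all genes were called, 31.7% higher and 34.0% lower. Ccnd1 fell by 4.62 ± 0.40 on the log2 scale (edgeR adjusted p = 9.97e-10), which is 24.6-fold. Ccnd2 did not pass (0.02 ± 0.17, adjusted p = 0.963, 95% interval -0.31 to 0.35), nor did Ccnd3 (-0.04 ± 0.09, adjusted p = 0.692). The sign of the Ccnd2 value turned when AGES replicate 3 was left out (-0.18), and that of Ccnd3 turned with DESeq2's size factors (0.04). Cdk6 fell by 3.23 ± 0.30 (adjusted p = 4.89e-10), and its pooled counts, 266 in NSC and 27 in AGES, gave a ratio of 9.60 with an exact 95% counting interval of 6.45 to 14.8.

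Of the inhibitors, Cdkn2b rose by 3.91 ± 0.28 in AGES (adjusted p = 1.65e-11), which is 15.1-fold. Cdkn2a rose by 0.76 ± 0.12 (adjusted p = 4.62e-06) and Cdkn1b by 0.74 ± 0.08 (adjusted p = 8.29e-09). Cdkn1a fell by 2.36 ± 0.21 (adjusted p = 4.19e-10) and Cdkn2c by 0.77 ± 0.14 (adjusted p = 2.15e-05). No fold is given for Cdkn1c, with at most 3 counts in any library of either group.

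AGES were finally set against the cultured primary astrocytes, in comparisons that share the AGES libraries. Against AdAC CellC, 8 of 10 members were called, 3 higher and 5 lower, where 76.2% of all genes were called, 31.0% higher and 45.2% lower, and the median of all genes was -0.23. Against neoAC CellC, 10 of 10 members were called, 4 higher and 6 lower, where 74.6% of all genes were called, 34.1% higher and 40.5% lower. In AGES Ccnd1 was lower than in AdAC CellC (log2 fold change -4.93 ± 0.41, edgeR adjusted p = 3.43e-10) and than in neoAC CellC (-2.99 ± 0.38, adjusted p = 2.69e-07). For Cdkn1a these log2 fold changes were -5.05 ± 0.23 and -3.04 ± 0.21. Cdk6 was lower as well, with pooled count ratios of 360 (exact 95% counting interval 247 to 546) for AdAC CellC over AGES and 281 (193 to 426) for neoAC CellC over AGES. For Cdkn1c, on 2 counts in AGES, these ratios were 611 (169 to 5053) and 956 (264 to 7900). The 6 mural or fibroblast markers summed to 1.39 to 1.84 CPM in AGES, none above 1 CPM, against 1114 to 1532 CPM in AdAC CellC and 346 to 525 CPM in neoAC CellC. Oligodendrocyte markers summed to at most 45.4 CPM in AGES. In AdAC CellC they summed to 4284 to 10913 CPM and in neoAC CellC to 271 to 350 CPM. Endothelial markers summed to at most 0.705 CPM in AGES against at least 39.0 and 3.88 CPM in these cultures. Ependymal or choroid plexus markers summed to 53.2 to 77.7 CPM in AGES against 411 to 597 and 1629 to 2548 CPM. Their part in these differences was not tested.

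In the other direction, Cdkn2a was higher in AGES than in AdAC CellC by 2.39 ± 0.13 and than in neoAC CellC by 6.06 ± 0.16 on the log2 scale. Cdkn2b was higher by 2.40 ± 0.26 and 4.49 ± 0.29, and Cdkn1b by 1.51 ± 0.08 and 0.99 ± 0.08. Ccnd3 was lower, with log2 fold changes of -0.66 ± 0.09 and -0.40 ± 0.09. Ccnd2 did not pass against AdAC CellC (-0.19 ± 0.17, adjusted p = 0.301) but did without AGES replicate 3 (-0.40, adjusted p = 0.0286). It was higher than in neoAC CellC by 0.86 ± 0.17, with overlapping libraries. Cdkn2c did not pass against AdAC CellC (0.22 ± 0.14, adjusted p = 0.154). It passed in a fit of those groups alone (0.32, adjusted p = 0.00330) and with no filter (0.34, adjusted p = 0.0409), and with library size scaling its value was -0.0022. It was lower than in neoAC CellC (-0.42 ± 0.14, adjusted p = 0.00879), a call lost without neoAC CellC replicate 1 (-0.29, adjusted p = 0.0618).

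The ratio of Ccnd1 to Ccnd2 within a library does not depend on how libraries are scaled. Its log2 value was 0.89 ± 0.19 in NSC and 0.99 ± 0.04 in AdAC CellC, -0.01 ± 0.34 in neoAC CellC, -2.32 ± 0.14 in AdAC direct, -2.53 ± 0.23 in neoAC direct and -3.97 ± 0.78 in AGES (mean ± SD, n = 4). Groups did not overlap in 6 of the 7 comparisons, each with p = 0.0286 in the exact two-sided permutation test, the smallest that 4 against 4 libraries allow, and 0.0364 after adjustment over the 14 ratio tests. The difference was -4.87 for AGES minus NSC, 3.31 for the culture of adult and 2.52 for that of neonatal cells. Only the direct isolates of the 2 ages overlapped, with a difference of -0.20 (exact permutation p = 0.171, adjusted p = 0.200). As differences of medians, a test that cannot give a p under 0.0571 with 4 against 4 libraries, the first 3 values were -5.10, 3.28 and 2.48.

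The ratio of Cdk6 to Cdk4 was measured in the same way. Its log2 value was -7.77 ± 0.48 in NSC and -9.20 ± 0.50 in AGES, against -3.11 ± 0.26 in neoAC direct, -2.92 ± 0.25 in AdAC direct, -1.64 ± 0.21 in AdAC CellC and -1.47 ± 0.40 in neoAC CellC. It passed in 5 of 7 comparisons (exact permutation p = 0.0286, adjusted p = 0.0364). Between ages the groups overlapped, both in culture (0.17, exact permutation p = 0.486) and after direct isolation (-0.19, exact permutation p = 0.314). With 27 counts of Cdk6 in AGES, the difference of -1.43 between AGES and NSC became -0.82 with a pseudocount of 5 in place of 0.5 and no longer passed (adjusted p = 0.109). Exons of Tspan31 on the opposite strand cover 19.7% of the Cdk4 exons, so the Cdk4 level is uncertain.

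**Figure D5:**
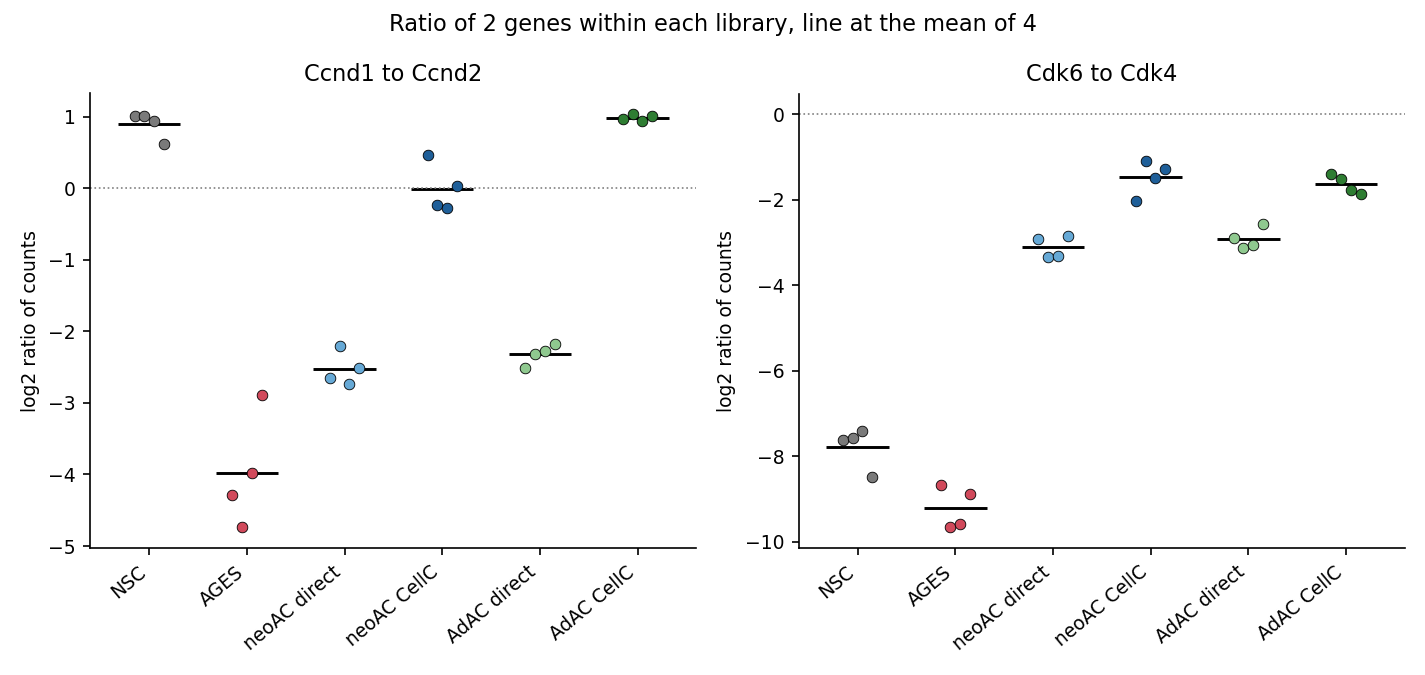
Log2 ratio of counts of Ccnd1 to Ccnd2 (left) and of Cdk6 to Cdk4 (right) in each of 4 libraries of the 6 groups (x axes), with a line at the group mean and a dotted line at equal counts. Ccnd1 exceeds Ccnd2 in all NSC and AdAC CellC libraries and is lowest against it in AGES at -3.97.

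Genes on either side of the members were counted in lists chosen with earlier results of these data known, with their number called in each direction. The shares of all genes called were 38.8% higher and 39.2% lower in adult culture, 34.4% and 31.3% in neonatal culture, 31.7% and 34.0% in AGES against NSC, and 28.5% and 35.2% in neoAC CellC against AdAC CellC. Of 20 proliferation genes, all 20 rose in adult culture (median log2 fold change 4.62), 17 rose and none fell in neonatal culture (0.80) and all 20 fell in AGES against NSC (-6.38). Mki67, a marker of cycling cells, was at 957 ± 81.6 CPM in NSC and 0.981 ± 0.268 CPM in AGES, at 251 ± 28.8 CPM in AdAC CellC and 205 ± 40.7 CPM in neoAC CellC, and at 126 ± 27.7 CPM in neoAC direct and 4.13 ± 0.620 CPM in AdAC direct. In neoAC CellC against AdAC CellC, 1 of the 20 was higher and 13 were lower (median -0.39). Mki67 itself did not pass there (-0.30 ± 0.15, edgeR adjusted p = 0.0818), Mcm2, a replication licensing factor, was lower (-0.99 ± 0.16) and Top2a, a mitotic topoisomerase, was higher (0.40 ± 0.12). The groups with the lowest Mki67, AGES and AdAC direct, were also those with the highest and the lowest summed INK4 level per kb.

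Downstream, the pocket protein and E2F genes numbered 13, of which 9 rose and 3 fell in adult culture and 3 rose and 10 fell in AGES against NSC. E2f1 rose by 2.65 ± 0.13 in adult culture and fell by 2.50 ± 0.13 in AGES. Rb1, which encodes the retinoblastoma protein, rose by 1.29 ± 0.14 in AGES against NSC (adjusted p = 7.97e-09), and E2f8 had the largest fall (-8.97 ± 0.28). Among 7 other CDK and cyclin partners, 6 rose and 1 fell in adult culture, and 1 rose and 6 fell in AGES against NSC. Ccne1, an E cyclin that acts after the D cyclins, was at 1.52 ± 0.252 CPM in AGES and 57.7 ± 7.88 CPM in NSC.

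Of the 20 genes of the p53 axis, which includes known regulators and targets that p53 shares with Cdkn1a, 16 rose and 3 fell in adult culture (median 1.84) and 15 rose and 4 fell in neonatal culture (median 1.03). Gdf15, a secreted p53 target, was at 70.8 ± 10.8 CPM in AdAC CellC and 0.248 ± 0.127 CPM in AdAC direct. Trp53 itself was at 155 ± 9.64 CPM in AdAC CellC and 45.1 ± 4.41 CPM in AdAC direct (1.78 ± 0.11, edgeR adjusted p = 6.81e-14). In neoAC CellC against AdAC CellC, 1 of the 20 was higher and 17 lower. In AGES against NSC 5 were higher and 12 lower (median -0.73), with Trp53 at 24.5 ± 2.69 against 82.1 ± 10.4 CPM.

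The 16 Polycomb and demethylase genes known to act on the Cdkn2a region moved both ways, in shares near those of all genes in adult culture. In adult culture 7 rose and 6 fell (median 0.12), with Ezh2, the methyltransferase of Polycomb complex PRC2, at 62.1 against 15.7 CPM and Cbx7, a PRC1 reader, at 25.8 against 147 CPM. In AGES against NSC 4 rose and 8 fell (median -0.14), with Ezh2 at 31.7 against 188 CPM and its relative Ezh1 at 63.4 against 15.4 CPM. In neonatal culture 1 rose and 9 fell (median -0.25).

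Of 7 genes that serve the degradation of p27, 6 rose and none fell in adult culture, and 1 rose and 5 fell in AGES against NSC. Skp2, the subunit that recognises p27, was at 106 CPM in NSC and 7.76 CPM in AGES, and Cks1b, its cofactor, at 118 and 13.6 CPM. Cdkn1b RNA was at 104 and 174 CPM. These genes act on p27 protein, which was not measured, and a link to the Cdkn1b RNA was not tested. In AdAC CellC Skp2 was at 20.9 CPM against 7.03 CPM in AdAC direct.

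Of 11 genes of growth factor and ERK signalling listed as inducers of Ccnd1 or as their feedback genes, 5 rose and 5 fell in adult culture, 1 rose and 9 fell in neonatal culture and 1 rose and 7 fell in AGES against NSC (median -2.32). Dusp6 and Spry4, feedback inhibitors of ERK signalling, were at 5.22 and 9.36 CPM in AGES against 478 and 566 CPM in NSC. Fosl1, an AP-1 subunit, was at 0.0452 CPM in AdAC direct, 45.6 CPM in AdAC CellC and 2.95 CPM in neoAC CellC, and Fos at 4053 CPM in neoAC direct.

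Across the 24 libraries, the genes whose log2 level was most like that of a member, by Pearson's r among 12121 protein-coding genes, were Ppa1 for Ccnd1 (r = 0.977), Elk3 for Ccnd2 (0.982), Ckap4 for Ccnd3 (0.957), Creb3l1 for Cdk6 (0.982), H6pd for Cdkn1a (0.972), Tcaf1 for Cdkn1b (0.980), Slc12a7 for Cdkn1c (0.995), Frk for Cdkn2a (0.984), Jak3 for Cdkn2b (0.965) and Atp5j2 for Cdkn2c (0.972). The p53 target Ccng1 was the third most like Cdkn1a (r = 0.953). Between members, r was 0.902 for Cdk6 and Cdkn1c, 0.895 for Ccnd2 and Cdkn2c, 0.875 for the neighbours Cdkn2a and Cdkn2b, 0.845 for Ccnd1 and Cdkn1a and -0.791 for Cdkn1a and Cdkn1b. These values rest on 6 groups of 4 libraries, alike within a group in cell source and handling, and are a description.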

How the data were processed

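The data were RNA-seq counts of 24 mouse libraries, in 6 groups of 4 given by the sample titles. The authors prepared stranded libraries of polyadenylated RNA and deposited raw counts, whole numbers per gene without normalization. According to the submitters' notes and the methods, reads were converted with bcl2fastq 2.20, aligned to GRCm38 with STAR 2.7.3a, keeping reads with up to 20 alignments, and counted on exons with featureCounts and the Gencode vM12 annotation. Whether counting used the strand or multiply aligned reads is not stated, so overlapping genes on opposite strands are uncertain.

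Of the 49671 gene identifiers, 49412 (99.98% of the counts) were matched to Gencode vM21 for symbols, positions and exon lengths. The tests were run with edgeR 4.0.16 under R 4.3.3. Genes were kept by filterByExpr (19691 genes, all 10 members), scaled by TMM and fitted with the robust quasi-likelihood model in 1 fit of the 6 groups. Each contrast was tested two-sided with Benjamini-Hochberg adjustment over all genes tested and a threshold of 0.05. A standard error was the absolute log2 fold change over the root of its F statistic. Where few counts lay behind a group, the ratio of pooled counts is given with an exact 95% interval, for counting error only. Ratios within a library used a pseudocount of 0.5 and an exact two-sided permutation test, adjusted over 14 tests. Replicates were separate isolations or cultures.

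The members were taken as a given list of symbols. That list, the gene lists and the marker lists were chosen with earlier results of these data known. From each list, at most the 2 called genes with the largest rise and the 2 with the largest fall were named in a comparison, at 1 CPM or more in the higher group. Cdk4, Trp53, Rb1, E2f1 and Mki67 were named throughout. Overlapping genes and Cdkn2d were named outside this rule. Likeness was Pearson's r of log2 CPM over 24 libraries, among protein-coding genes with a mean of at least 10 CPM in some group. Promoter sequences came from RefSeq (GRCm38.p6), with 3 windows matched for the genes Cdkn2a and Cdkn2b.

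Alternatives were DESeq2 1.42.0 size factors, library size alone, no filter, the DESeq2 Wald test, a minimum of 10 counts in all libraries, a fit of only the groups compared, a block for the replicate number, a pseudocount of 5, a difference of medians, and leaving out each replicate.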

Additional observations from a re-analysis of the deposited data

Results flagged for a closer look

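In 3 of the 60 sets of 4 libraries tested, 1 library stood apart from the other 3 by Dixon's criterion, which chance meets in about 1 of 20 sets. Cdkn1a was at 619 CPM in AdAC CellC replicate 4, against 723 to 741 CPM in the other libraries. Cdkn2c was at 57.2 CPM in the same library, against 44.1 to 45.8 CPM. Cdkn2a was at 0.388 CPM in neoAC direct replicate 2, against 0.162 to 0.200 CPM, which is a few counts per library.

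The effect of culture differed between adult and neonatal astrocytes for 8 members, by the interaction term of the edgeR fit with an adjusted p under 0.05. The difference in log2 fold change, adult minus neonatal, was 5.07 for Ccnd1, 4.40 for Ccnd2, 1.29 for Ccnd3, 1.38 for Cdk6, 1.92 for Cdkn1a, 4.88 for Cdkn2a, 1.99 for Cdkn2b and 2.41 for Cdkn2c. Over all genes tested, 68.6% had such a difference. The 2 culture effects come from separate libraries, and different dissociation kits at the 2 ages cannot be told apart from age.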

How the results depend on the processing

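Of the log2 fold changes of single members under the alternatives, 1214 kept their direction and their side of the threshold, 19 lost the call, 8 gained it and 13 changed sign. When at least 10 counts were required in every library, Cdk6, Cdkn1c and Cdkn2a could not be tested, and the members called became 5 in AGES against AdAC CellC, 6 in neoAC CellC against AdAC CellC and 5 in neoAC direct against AdAC direct. Signs turned only for values that passed no threshold. In AGES against NSC, Ccnd3 became 0.044 with DESeq2's size factors, 0.037 without a filter, 0.061 with at least 10 counts, 0.051 in a fit of those groups alone and 0.044 in the DESeq2 Wald test. With library size alone, Ccnd2 became -0.068 in AGES against NSC and Cdkn2c -0.0022 in AGES against AdAC CellC, and with at least 10 counts the interaction of Cdkn1b became -0.053. Leaving out 1 replicate moved Ccnd2 from -0.18 to 0.14 and Ccnd3 from -0.093 to 0.0034 in AGES against NSC, and Cdkn1a from -0.27 to 0.0090 and Cdkn2b from -0.44 to 0.10 in neoAC direct against AdAC direct. A difference of medians cannot give a p under 0.0571 with 4 against 4 libraries, so no ratio could pass. Its values kept their direction, with Ccnd1 to Ccnd2 at 3.28 and 2.48 in adult and neonatal culture, -5.10, -5.11 and -4.03 in AGES against NSC, AdAC CellC and neoAC CellC, and -1.09 between cultured ages, and Cdk6 to Cdk4 at 1.33, 1.74, -1.64, -7.59 and -7.86 in the first 5 of these. A pseudocount of 5 gave -0.82 for Cdk6 to Cdk4 in AGES against NSC. Scaling by library size alone moved the median of all genes to 0.27 in neonatal culture and to -0.44 and -0.37 in AGES against AdAC CellC and neoAC CellC. Replicate numbers did not pair the libraries (correlations of deviations from -0.0953 to 0.106). A replicate block left the members called at 10 in adult culture, 8 in neonatal culture and 7 in AGES against NSC, and changed no call of a member. Few counts limit what Cdkn1c in NSC and AGES and Cdkn2a in AdAC direct can show.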
